A study of Mus musculus with 24 samples.

Results

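The 5p arms of the microRNAs (miRNAs) numbered miR-6896 to miR-7093 were taken from a mouse liver array series. Members were chosen by name, as every mouse miRNA on the array with a number from 6896 to 7093 and the ending -5p. The choice was made with earlier results of these data known. This gave 200 of the 1881 miRNAs measured, from 198 numbers, because numbers 6973 and 7036 each carry an a and a b form. A 3p arm of 198 of these members was also on the array.

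A miRNA hairpin gives a 5p arm and a 3p arm, and the arm that is loaded into an Argonaute protein pairs with target transcripts through its seed, bases 2 to 8. Many miRNAs in this range of numbers entered the catalogue from sequencing as candidate mirtrons. A mirtron is a short intron that folds into a hairpin after splicing, so that it needs no cut by Drosha, and its 5p arm lies at the 5′ splice site and its 3p arm at the 3′ splice site, which ends in AG. No member was examined here for its processing.

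The series used 24 one-colour arrays and liver RNA of 3 mice, named 7, 10 and 9 in the labels, with 1 array of each mouse in each of 8 groups. For the storage time course of the study the methods name male C57BL6 mice of an Il1a knock-out strain, for these 3 livers they state no strain or age, and the groups do not differ by genotype. Small RNAs were retained in 4 groups, from tissue put into RNAlater at once (0 h) or left for 96 h at room temperature, each prepared with or without DNase. The other 4 groups held RNA of unstored tissue prepared with DNase on a column that lets most small RNAs pass, so this RNA was depleted of small RNAs but not free of them. It was hybridized untreated, or after incubation and re-isolation with 0 U, 0.026 U or 0.67 U of RNase. Each mouse had its 8 arrays on 1 slide, scanned on 1 day, so mouse, slide and scan day cannot be told apart.

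The RNA integrity number (RIN), which is high for intact RNA, was 8.8 to 9.4 on the arrays called intact here, which are those of the 2 groups at 0 h, the untreated depleted group and the 0 U group. It was 2.3 to 2.5 after 96 h, 6.0 to 7.0 at 0.026 U and 2.4 to 2.9 at 0.67 U. For mouse 9 the titles, source names and RNase characteristics in the labels give the 2 RNase doses in opposite order to the descriptions and protocols. These arrays were grouped by their descriptions, since RIN follows them. The doubt about the doses of mouse 9 holds for every result below that rests on a single dose. The liver miRNA miR-122-5p was detected on all 24 arrays, at 6767 to 12125 units of intensity at 0 h with DNase, and miR-192-5p and miR-194-5p were detected on all arrays too. Of the miRNAs that mark other tissues, miR-1a-3p, miR-208a-3p, miR-124-3p, miR-9-5p and miR-375-3p were detected on none, and the muscle miRNA miR-133a-3p was detected on the 96 h arrays alone, at 9.65 to 14.2 intensity units. Its part in the results was not tested. In bulk tissue a change in the number of cells of a type and a change in RNA per cell cannot be told apart.

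RefSeq (mouse assembly GRCm38.p6) held the mature sequence of 176 of the 200 members. The sequences below, read 5′ to 3′ with the seed in capitals, belong to the members on which the results turn. The first 3 rose most with storage among members with a sequence.
miR-7045-5p: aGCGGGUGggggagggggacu
miR-6931-5p: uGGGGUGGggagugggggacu
miR-7014-5p: uUGGGUGCuguggaagggacag
The next was detected after storage and on no RNase array.
miR-7015-5p: uCUGUGCAguaggcuguggguuc
These 5 are members with large increases after RNase.
miR-7036a-5p: aGCGGGGUucgguggggaagaga
miR-6908-5p: uUGCCUGUcagggagagcccca
miR-7011-5p: aGGAGGAUgggagagggaggugu
miR-6998-5p: cUGGGCAGagggcaaagugacu
miR-7058-5p: uAGAGGGGaggugaccguggaagu
The next was detected on all 24 arrays and was called in no comparison.
miR-6997-5p: uAACAGGCuggagaggugcaga
Of the members kept for testing, 4 pairs share a seed, shown pair by pair.
miR-6965-5p: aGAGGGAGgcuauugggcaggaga
miR-7047-5p: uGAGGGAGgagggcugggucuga
miR-6911-5p: uGGGCUGAgugggucuguggcau
miR-7028-5p: uGGGCUGAggcuugggucaggag
miR-6927-5p: gUGAGGGGauccagcccaggcu
miR-7070-5p: gUGAGGGGagcugaggcagga
miR-6990-5p: cCCAGGGUgagucagggcucu
miR-7032-5p: cCCAGGGUgguccccgagaggguggu

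The layout of the block is seen in the RefSeq hairpins of mir-7047 and mir-7058, which are 64 and 75 bases long. Capitals mark the 2 arms, the 5p arm on the left and the 3p arm on the right.
mir-7047: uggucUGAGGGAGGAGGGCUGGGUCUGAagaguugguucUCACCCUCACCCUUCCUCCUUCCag
mir-7058: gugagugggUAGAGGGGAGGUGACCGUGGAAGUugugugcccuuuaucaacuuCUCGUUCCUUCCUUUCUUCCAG

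The 5p arms were rich in G. Over the 176 members with a sequence G made up 44.2% of the bases on average and C 14.3%, against 15.7% and 40.1% in the 174 3p arms with a sequence, and 27.3% and 23.7% in the 1258 other miRNAs. A run of GGGG stood in 67 members (38.1%), in 1.15% of the 3p arms and in 8.98% of the other miRNAs. The motif GUGGG, which can overlap such a run, stood in 15.3% of the members and in 3.74% of the other miRNAs. The letters GUGAGU, which begin the mir-7058 hairpin above, were within the mature sequence of 3 members, and 15 members (8.52%) began with GU. An AG end was present in 136 of the 174 3p arms (78.2%), in 6.82% of the 5p arms and in 8.51% of the other miRNAs. All motifs were read on the miRNA strand only, and a match is a description of these letters and not of a splice site. In the RefSeq gene table the hairpins of all 200 members lay within the span of a protein-coding gene, as did 625 of the 1028 other miRNA genes (60.8%). The strand was not compared.

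The first question was how many members were seen at all, in intact RNA and in RNA that had been broken down. On the intact arrays between 16 and 29 of the 200 members were detected, that is, flagged above background by the scanner software. On the 96 h arrays with DNase 109, 99 and 126 members were detected in mice 7, 10 and 9, a mean of 111.3 ± 13.65 (SD, n = 3), against 27 to 28 on the 0 h arrays with DNase. Without DNase the range was 22 to 29 at 0 h and 97 to 104 after 96 h. The 96 h arrays did not overlap any intact array in this number.

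Depleted RNA gave 16 to 21 detected members untreated and 20 to 28 after incubation with 0 U. After 0.026 U 34, 37 and 68 were detected in mice 7, 10 and 9, and after 0.67 U 49, 65 and 52. Every RNase array therefore lay above every 0 U array, and below every 96 h array. The 3p arms of the block reached 46 to 65 on the 96 h arrays, of 198, and 10 to 24 on the RNase arrays, the latter overlapping the 14 to 19 of the 0 U arrays. The 1483 other miRNAs showed the same order as the 5p arms, with 165 to 195 detected at 0 U. They gave 211 to 320 at 0.026 U, 254 to 314 at 0.67 U and 437 to 530 after 96 h with DNase. Their mean share detected was 17.3% at 0 h and 32.5% after 96 h with DNase, against 13.8% and 55.7% of the members.

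**Figure D1:**
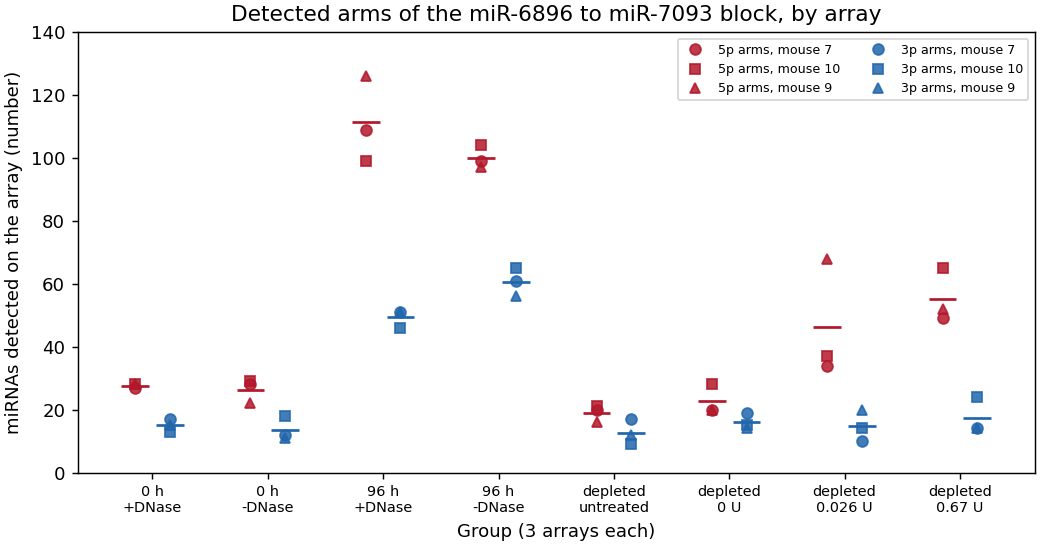
Number of 5p arms (red, of 200) and 3p arms (blue, of 198) of the block detected on each array, by group, with a symbol per mouse and a line at the mean of 3 arrays. The 5p arms rose from 27 to 28 on fresh arrays with DNase to 99 to 126 after 96 h and to 34 to 68 or 49 to 65 after RNase, while the 3p arms on the RNase arrays stayed at 10 to 24.

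In intensity units the detected members added up to 303.5, 418.0 and 326.2 on the 0 h arrays with DNase in mice 7, 10 and 9, and to 28357, 33440 and 33568 on the 96 h arrays with DNase. As a share of all detected signal this amounted to 0.43% ± 0.11 (SD, n = 3) on the fresh arrays and to 12.5% ± 3.85 (SD, n = 3) on the stored ones. The 3p arms held 0.0855% ± 0.0435 (SD, n = 3) and 0.278% ± 0.0677 (SD, n = 3). In depleted RNA the 5p arms held 3.95% ± 1.41 (SD, n = 3) after 0 U. The lower dose gave 5.46% ± 0.74 (SD, n = 3) and the higher dose, 0.67 U, gave 5.61% ± 0.37 (SD, n = 3). Their share was thus within 2.71% to 6.30% over the 0 U and RNase arrays, although their summed signal rose from 235.6 to 551.0 intensity units at 0 U to 1847 to 11186 at the 2 doses, and the signal of other miRNAs rose as well.

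Of the 200 members, 61 were detected on no array, among them the first and the last number, miR-6896-5p and miR-7093-5p. Another 43 were detected on 1 to 4 arrays. The remaining 96 (48.0%), detected on at least 5 arrays, were kept for testing, against 46 of the 198 3p arms (23.2%) and 631 of all 1881 miRNAs. Of the 96 kept, 62 were never detected on an intact array, 30 of them being detected on 96 h arrays alone and 32 on both 96 h and RNase arrays. Over all 631 kept miRNAs 271 were never detected on an intact array, a smaller share. Shares of calls over the 96 and over all kept miRNAs therefore differ in this as well. The 62 members entered through the degraded arrays and had to differ, so counts over the 96 are a description, and so are the p-values of these 62. Counts over the 34 members that were detected on at least 1 intact array, or a part of them, stand beside those for storage, for both RNase doses together and for depletion. No member was seen on RNase arrays alone among the 96, and 13 were detected on all 24 arrays.

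Changes are differences of group means on the glog2 scale of variance stabilizing normalization, on which 1 is a 2-fold change. A miRNA was called at a Benjamini-Hochberg adjusted p under 0.05 from limma over the 631 miRNAs kept and a change of at least 1. Where a member was detected on no array of the dimmer group, the fold is given as a bound, with each undetected array raised to the lowest detected signal of that array, and a second count asks that the change still be at least 1 after this step. The normalization gave the 96 h arrays with DNase 3.57 times the intensity per normalized unit of the 0 h arrays, so ratios of intensities are larger than the folds on the normalized scale. By the methods each liver was cut into parts, so the groups with small RNAs come from different pieces of the liver of a mouse. The depleted RNA came from a further piece, and aliquots of it were treated with the RNase amounts. The p-values measure the spread between these arrays.

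The question of storage was answered by 96 h against 0 h in RNA with small RNAs and DNase. Of the 96 kept members 88 were called higher and 0 lower, against 60.4% of all kept miRNAs higher and 21.6% lower, and 18 were higher with normexp background correction. With undetected arrays raised, 83 members stayed called, against 53.7% of all, and the median change was 2.49, against 1.32 for all kept miRNAs. Of the 27 members detected on all 3 fresh arrays 24 were higher and 0 lower, with a median change of 4.13. Of the 232 other miRNAs detected on all 3 fresh arrays, outside the block, 70 were higher and 127 lower, with a median of -1.91. Of the 13 3p arms detected there, 1 was higher. Without the filter 154 of 200 members were called higher, against 34.9% of all 1881. Since 61 of the 200 were detected on no array, some of these calls are among signals not above background.

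miR-7047-5p was detected on all 24 arrays. It gave 49.5, 53.9 and 45.3 intensity units at 0 h in mice 7, 10 and 9 and 6110, 11445 and 4597 after 96 h. All 3 stored arrays lay far above all fresh ones, and the normalized signal was 38.6-fold higher (change 5.27, SE 0.48, limma adjusted p = 7.69e-09). miR-6937-5p, also detected everywhere, went from 20.3, 22.8 and 18.2 to 2507, 3800 and 1738 units, a 34.2-fold change (5.10, adjusted p = 7.13e-09).

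miR-7045-5p, within Chd4, the gene of a chromatin remodelling ATPase, gave 0.59, 1.80 and 1.06 units at 0 h, detected on no array, and 591, 920 and 743 after 96 h. It was at least 113-fold higher (adjusted p = 3.94e-09), and this was the largest storage increase of the block on this scale. miR-7040-5p, within Loxl3, a gene of the lysyl oxidase family, gave 1.57, 2.04 and 1.64 units and then 808, 2530 and 301, at least 99.9-fold higher (adjusted p = 1.13e-08). Its stored arrays differed widely among the mice, and none came near a fresh array.

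miR-6931-5p, within Dcakd, was weakly detected at 0 h at 3.06, 6.99 and 2.66 units and reached 1364, 2713 and 957, a 95.1-fold change (adjusted p = 7.20e-10). miR-7014-5p, within Ecm1, an extracellular matrix gene, went from 0.77, 0.55 and 1.06 units, undetected, to 402, 180 and 214, at least 44.2-fold (adjusted p = 3.51e-09). miR-7015-5p, within Smap2, went from at most 0.97 units, undetected, to 287, 122 and 388, at least 44.0-fold (adjusted p = 3.60e-08). All 5 were higher in 3 of 3 mice. Apart from miR-6931-5p they were undetected on the fresh arrays and were kept in part through the stored arrays. The p-values of these members are therefore a description.

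**Figure D2:**
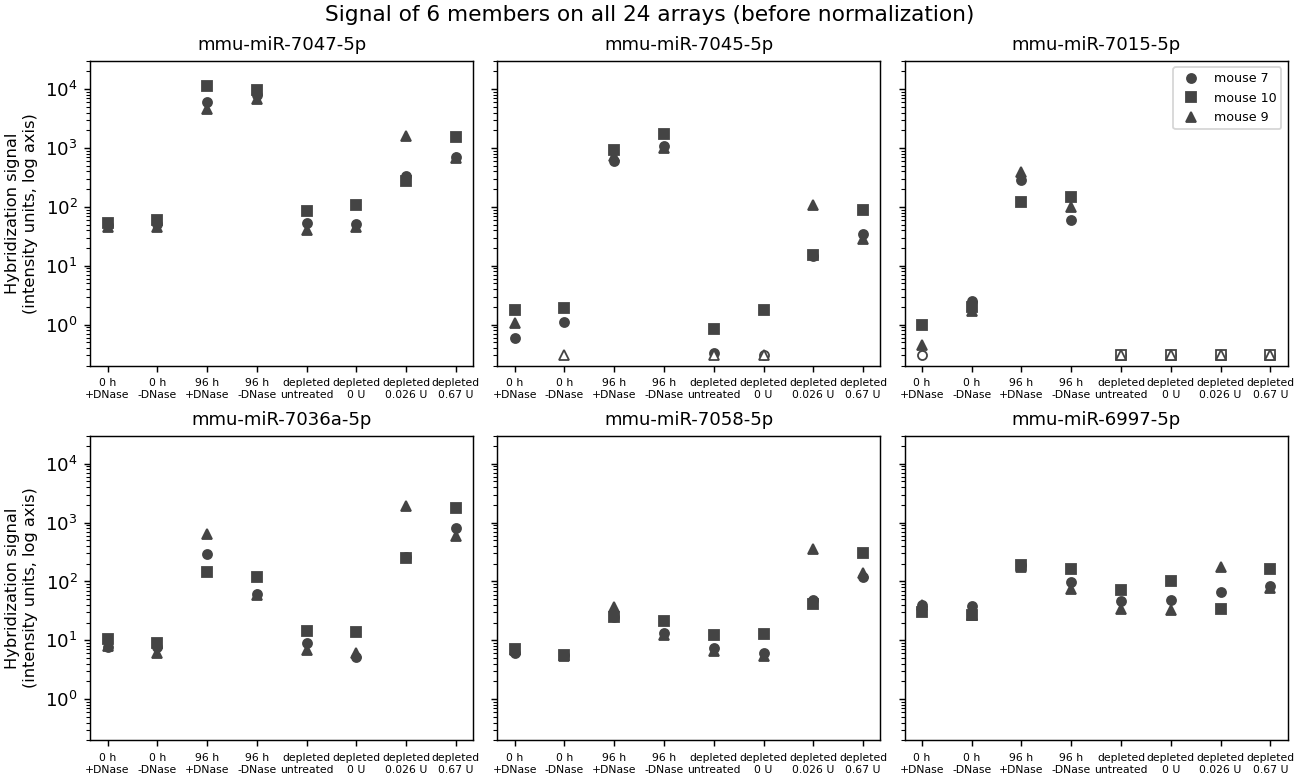
Signal before normalization of 6 members on all 24 arrays (log axis, intensity units), by group, with a symbol per mouse; open symbols at the bottom are signals under 0.3, drawn at 0.3. miR-7047-5p, miR-7045-5p and miR-7036a-5p were higher on every 96 h and RNase array than on any intact array, miR-7015-5p was bright on the 96 h arrays only, and miR-6997-5p was called in no comparison.

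The 13 members detected on all 24 arrays did not enter through the degraded groups. They were miR-6908-5p, miR-6937-5p, miR-6944-5p, miR-6969-5p, miR-6997-5p, miR-7005-5p, miR-7020-5p, miR-7036a-5p, miR-7042-5p, miR-7047-5p, miR-7048-5p, miR-7058-5p and miR-7082-5p. Of these, 11 rose with storage, by 6.24-fold for miR-6908-5p to 38.6-fold for miR-7047-5p, and miR-6997-5p and miR-7058-5p were not called. Among the 103 other miRNAs outside the block detected on all arrays 46 were higher and 44 lower, and of the 6 3p arms none was called. miR-7005-5p, within Lama5, a laminin gene, went from 15.6, 37.3 and 17.8 units to 2695, 1000 and 4136, a 28.1-fold change (adjusted p = 1.84e-08). miR-7082-5p went from 9.7, 15.2 and 12.0 units to 963, 1624 and 1250, a 27.7-fold change (adjusted p = 5.96e-08). In both the stored arrays lay above every fresh one.

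The 96 members were not equal in this. With undetected arrays raised, their storage changes ran from -0.74 to 6.82 with quartiles of 1.61 and 4.02, and 34 members were at least 10-fold higher. Members not called were miR-6904-5p, miR-6918-5p, miR-6936-5p, miR-6997-5p, miR-6999-5p, miR-7025-5p, miR-7050-5p and miR-7058-5p. miR-6997-5p, within Sptan1, a spectrin gene, gave 39.6, 29.7 and 39.4 units at 0 h and 189, 189 and 179 after 96 h, a normalized change of 0.52 (SE 0.41, adjusted p = 0.235). miR-7058-5p, within Lat, a gene of T cell receptor signalling, gave 6.19, 7.11 and 6.82 and then 25.2, 24.8 and 37.3 units, a normalized change of 0.20 (SE 0.45, adjusted p = 0.686). In both the groups did not overlap in intensity units, before normalization. With spike-in scaling 95 of the 96 members were called higher with storage, with DNase and without it. Which members are not called therefore depends on the scaling.

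Without DNase the same storage comparison called 88 members higher and 0 lower, against 60.5% and 23.0% of all kept miRNAs. The count fell to 44 with 2 lower under the percentile over all miRNAs, to 47 with 2 lower under quantile normalization and to 12 with normexp. After undetected arrays were raised 73 members stayed called, against 52.8%, with a median change of 1.80. By this rule 70 members were called with and without DNase, against 289 of all 631 kept miRNAs. Of the 27 members detected on all 3 fresh arrays with DNase 24 were higher and 0 lower, with a median change of 2.775. Of the 232 other miRNAs detected there 68 were higher and 135 lower. The Spearman correlation of the storage changes with and without DNase was 0.84 over the 96 members, which share mice and slides. Since 62 of the 96 entered through the degraded arrays, this correlation is a description. miR-7045-5p was at least 188-fold higher and miR-7040-5p at least 235-fold, with 1064, 1723 and 1020 and 1371, 2389 and 1646 units on the stored arrays. The difference between the 2 storage changes, tested as an interaction, was called for 0 members, against 1.11% of all kept miRNAs, and 11 of 96 members had an unadjusted p under 0.05. Without mouse 10 it was called for 6 members.

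**Figure D3:**
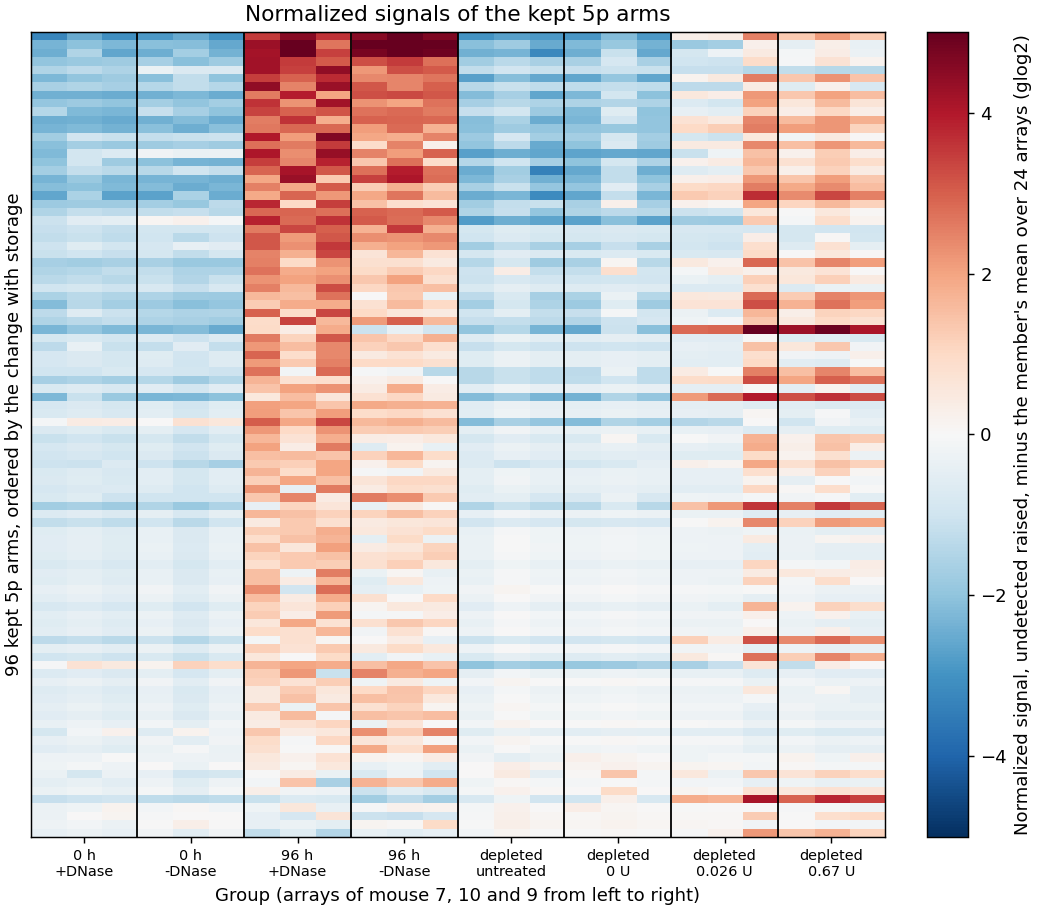
Normalized signal of the 96 kept members (rows, ordered by the storage change) on the 24 arrays (columns), with undetected arrays raised, as the difference from the mean of the member on the glog2 scale, red above and blue below. The 6 columns of the 96 h groups are the highest for most members, with a median storage change of 2.49 with DNase, and the RNase columns are higher than the 0 U columns for a part of them.

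The question of the RNase groups was whether degradation in the tube raises these signals in RNA depleted of small RNAs. Both doses together, 6 arrays against the 3 at 0 U, called 77 members higher and 0 lower, against 44.7% and 0.0% of all kept miRNAs. The count was 34 to 46 under the other scalings, 39 with the total gene signal as deposited and 10 with normexp, with 0 to 3 lower. Of these 77, only 31 were detected on all 6 RNase arrays, and 16 were detected on no array of either group, so their change is one among signals not above background. With undetected arrays raised 43 members stayed called, against 27.6% of all, and the median change was 0.66, against 0.055 for all kept miRNAs. Without the filter 95 of 200 were called, against 18.3%, in part among signals not above background. Of the 27 members detected on all 3 fresh arrays 25 were higher, against 59 of 232 other miRNAs and 0 of 13 3p arms. Leaving out mouse 9 gave 56 calls in place of 77.

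miR-7036a-5p, within Srrt, a gene of the nuclear cap-binding pathway, rose most with undetected arrays raised. It gave 5.30, 13.9 and 6.15 units at 0 U in mice 7, 10 and 9, then 258, 255 and 1932 at 0.026 U and 814, 1753 and 585 at 0.67 U. All 6 RNase arrays lay above the highest intact array, which gave 14.7 units, a 60.5-fold change on the normalized scale (5.92, SE 0.44, limma adjusted p = 1.77e-09). miR-6908-5p, within Pdxk, the pyridoxal kinase gene, went from 15.7, 24.4 and 16.6 units to 373, 559 and 2017 at 0.026 U and 917, 1734 and 778 at 0.67 U, a 34.8-fold change (adjusted p = 4.81e-10).

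miR-7011-5p, within Sema4a, a semaphorin gene, was detected on 1 of 3 arrays at 0 U, at 1.58, 5.07 and 1.82 units in mice 7, 10 and 9. It gave 37.0, 31.1 and 303 units at 0.026 U and 92.0, 256 and 83.3 at 0.67 U, a 21.5-fold change (adjusted p = 3.29e-07). miR-7045-5p was undetected at 0 U, at no more than 1.76 units, and gave 14.6, 15.0 and 108 units and 34.7, 87.9 and 28.6 units at the 2 doses, at least 15.6-fold higher (adjusted p = 1.49e-07). miR-6998-5p, within Fubp3, was 14.6-fold higher with undetected arrays raised (adjusted p = 6.16e-07), with 1 of 3 arrays detected at 0 U. All were higher in 3 of 3 mice. The p-value of miR-7045-5p, undetected at 0 U, is a description here too.

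Of the 13 members detected on all 24 arrays 12 rose after RNase, from 2.36-fold for miR-6969-5p to 60.5-fold for miR-7036a-5p, and miR-6997-5p was not called. Among the 103 other always detected miRNAs 41 rose, and none of the 6 3p arms did. miR-7044-5p, detected on 23 arrays, gave 2.53, 6.81 and 2.72 units at 0 U, 24.9, 24.4 and 118 at 0.026 U and 56.0, 108 and 35.7 at 0.67 U, an 8.56-fold change (adjusted p = 5.18e-07). miR-7018-5p, detected on 22, gave 2.05, 6.96 and 1.99 units at 0 U, 9.67, 8.08 and 45.6 at 0.026 U and 18.9, 44.9 and 15.9 at 0.67 U, a 3.81-fold change (adjusted p = 0.000234). In both every RNase array lay above every 0 U array.

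At the single doses 62 members were called at 0.026 U, against 36.6% of all kept miRNAs, and 77 at 0.67 U, against 44.8%. The count at 0.026 U leaned on mouse 9, since 25 were called without it. With mouse 9 grouped by the titles in place of the descriptions the counts were 59 and 81. The order of the doses within a mouse was read from the 33 members detected on all 6 RNase arrays. In mouse 7 all 33 were brighter at 0.67 U, with a median intensity ratio of 2.38, and in mouse 10 all 33, with a median of 5.90. In mouse 9 none of the 33 was, and the array described as 0.026 U was brighter by a median of 2.84 times. The members in mouse 9 therefore followed the dose order of the titles, while RIN, 6.0 at 0.026 U and 2.4 at 0.67 U by the descriptions, followed the descriptions. Which label is right cannot be settled from these values.

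Of the 88 members called higher with storage, 75 were also higher after RNase, 85.2% of the storage calls and 97.4% of the 77 RNase calls. Over all 631 kept miRNAs these shares were 70.6% and 95.4%, so the second is near that of all. With undetected arrays raised the overlap was 40 members, 48.2% of 83 and 93.0% of 43. With undetected arrays raised all 631 kept miRNAs gave 46.9% and 91.4%, near the shares of the members. The members called after RNase and not with storage, with undetected arrays raised, were miR-6911-5p, miR-7050-5p and miR-7058-5p. The Spearman correlation of the 2 changes was 0.60 over the 96 members. Since 62 of the 96 entered through the degraded arrays, the overlap and this correlation are descriptions. The groups share no array here, but they share mice and slides.

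The difference of the 2 changes, storage minus RNase, was called in favour of storage for 46 members and in favour of RNase for 4, against 36.5% and 22.3% of all kept miRNAs. With undetected arrays raised this was 44 and 4, against 33.3% and 22.0%. These counts are over the 96 kept members and are a description. The split depended on the scaling, with 34 and 9 after scaling all miRNAs to their 75th percentile, 35 and 10 after quantile normalization, 9 and 5 after normexp background correction and 82 and 1 after spike-in scaling. Leaving out mouse 7 gave 21 and 3, and leaving out mouse 10 gave 30 and 4.

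miR-7015-5p stood at one end of this range. It was undetected, with signals below 0, on all 6 RNase arrays after its rise with storage, and the 2 fitted changes differed by 4.47 (SE 0.83, adjusted p = 0.00015), a difference that rests in part on signals not above background. miR-7040-5p reached only 1.91, 2.15 and 17.1 units at 0.026 U and 7.45, 18.6 and 6.52 at 0.67 U, and the changes differed 34.9-fold (adjusted p = 3.95e-05). For miR-6931-5p, miR-7031-5p and miR-7014-5p the fitted changes differed by 4.64, 3.78 and 3.76 (adjusted p between 8.54e-06 and 0.000314), and the latter 2 were undetected on all fresh and 0 U arrays.

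At the other end stood miR-7058-5p, whose change with storage was not called on the normalized scale. It gave 6.03, 13.0 and 5.45 units at 0 U, 48.7, 41.2 and 361 at 0.026 U and 121, 305 and 138 at 0.67 U, an 11.2-fold increase (adjusted p = 3.95e-07). Its RNase change exceeded its storage change by 3.29 (SE 0.60, adjusted p = 0.000117), a 9.78-fold difference. miR-7036a-5p rose 9.21-fold with storage against 60.5-fold after RNase, a difference of 6.57-fold (adjusted p = 0.00174). miR-6908-5p rose 6.24-fold against 34.8-fold, a difference of 5.57-fold (adjusted p = 0.000482). miR-7032-5p was the fourth, with a difference of -2.22 (SE 0.90, adjusted p = 0.0374). Its call was lost without mouse 7 (-2.97), without mouse 10 (-1.70), without mouse 9 (-1.99), with spike-in scaling (-0.16) and with normexp (-0.72), and the sign turned with the total gene signal as deposited (0.020). miR-6997-5p was called in neither, with 48.1, 101 and 32.5 units at 0 U and 65.0, 34.1 and 180 and 84.6, 165 and 78.9 at the 2 doses, which overlap.

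**Figure D4:**
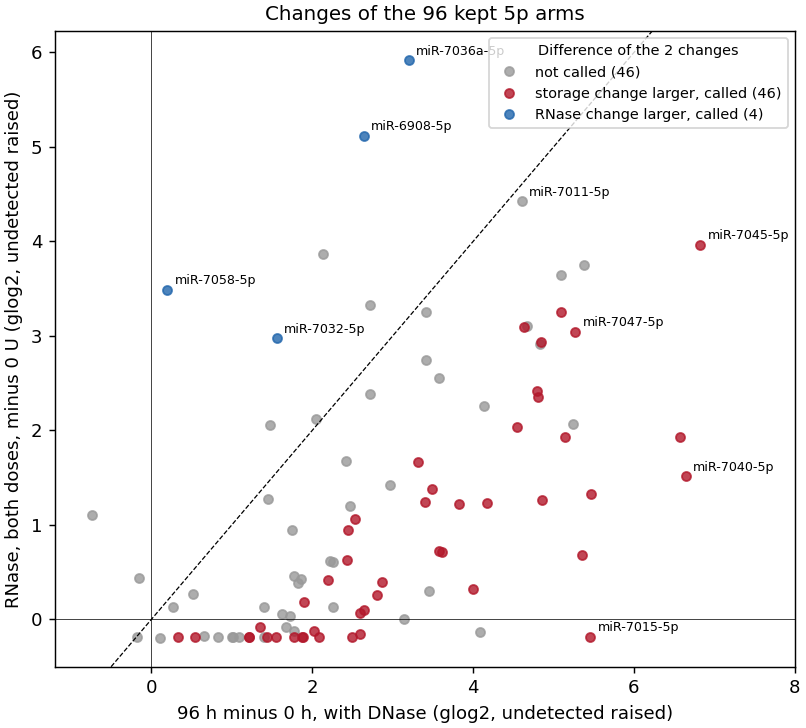
Storage change with DNase (horizontal) against RNase change of both doses (vertical) of the 96 kept members on the glog2 scale, with undetected arrays raised and the line of equal change dashed. Most members lie below the line, where 46 were called (red) in the fit before undetected arrays are raised, 44 of them also after it, and 4 lie above it and were called (blue), among them miR-7058-5p and miR-7036a-5p.

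The seed pairs show how far members with the same seed moved alike. miR-7047-5p and miR-6965-5p share GAGGGAG, and miR-6965-5p, within the cyclin F gene Ccnf, rose 5.81-fold with storage, from 7.25, 11.5 and 9.89 units to 262, 88.1 and 374, against 38.6-fold for miR-7047-5p. miR-6911-5p and miR-7028-5p share GGGCUGA. miR-7028-5p was detected on all 6 stored arrays, at 15.2 to 101 units, and on no RNase array, while miR-6911-5p was detected on no stored array with DNase (its call there is among signals not above background), on 2 of 3 without, and on all 3 arrays at 0.67 U, at 4.25, 8.55 and 2.93 units. miR-6927-5p and miR-7070-5p share UGAGGGG and were both higher with storage, the first at least 2.33-fold and the second at least 28.9-fold. After RNase miR-7070-5p was called (adjusted p = 0.00883), and miR-6927-5p, detected on no RNase array, was not (adjusted p = 0.535). miR-6990-5p and miR-7032-5p share CCAGGGU, and the first was detected on no RNase array and the second on all 6.

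DNase digestion removes DNA that could hybridize, and its omission was compared at both times. At 0 h the omission called 0 members, as it called 0.0% of all kept miRNAs, and 3 members had an unadjusted p under 0.05 by limma. At 96 h it called 0 members higher and 5 lower (5.21%), against 6.18% and 4.6% of all kept miRNAs. The share of members lower was thus near that of all. The median change of the 96 members was -0.84, -0.17 and -0.98 within mice 7, 10 and 9, where the median of all kept miRNAs was -0.0024, -0.21 and 0.27.

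miR-6912-5p gave 115, 10.3 and 144 units with DNase and 12.9, 13.9 and 3.71 without it, 5.17-fold lower on the normalized scale (adjusted p = 0.0288), with overlapping groups, the array of mouse 10 being dim with DNase as well. miR-7036a-5p gave 295, 144 and 648 and then 60.4, 117 and 59.7 units, 3.64-fold lower without overlap (adjusted p = 0.0201). miR-6987-5p gave 342, 224 and 653 and then 79.0, 280 and 44.4 units (3.34-fold, adjusted p = 0.0375), and miR-6969-5p 903, 163 and 1357 and then 198, 170 and 121 (3.33-fold, adjusted p = 0.0463), both with overlap. The call of miR-6969-5p was lost with the mouse as a replicate block (change -1.73) and without the filter. miR-7005-5p, the other call, was lower in 2 of 3 mice. These calls rested on mice 7 and 9, since 0 members were called without mouse 7 and 0 without mouse 9, while without mouse 10 17 were lower and 2 higher. The split also moved with the scaling, to 5 higher and 8 lower with the 75th percentile of always detected miRNAs, 2 and 23 with that of all miRNAs, 4 and 15 with quantile normalization, 4 and 19 with spike-in scaling, and 4 and 6 without the filter.

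Depletion of small RNAs was compared in intact RNA of unstored tissue, the untreated depleted group against the 0 h group with DNase. It called 0 members higher and 7 lower (7.29%), against 5.39% and 24.4% of all kept miRNAs. Of these, 4 stayed lower after undetected arrays were raised, against 18.5%. Of the 27 members detected on all 3 fresh arrays 4 were lower, with a median change of 0.11, while 117 of the 232 other miRNAs detected there were lower, with a median of -1.21. Of the 13 members detected on all 24 arrays none was called, against 43 lower and 3 higher among 103 other miRNAs. miR-7047-5p, for example, gave 49.5, 53.9 and 45.3 units with small RNAs and 53.6, 86.8 and 41.0 in depleted RNA, which overlap (change 0.29, SE 0.48, limma adjusted p = 0.776).

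The 4 members that stayed lower were detected on all fresh arrays with small RNAs and on none of the untreated depleted arrays. miR-7050-5p, within Fxyd5, gave 6.11, 11.9 and 8.68 units at 0 h and was undetected at 0.86 units or less in depleted RNA, at least 4.74-fold lower (adjusted p = 0.000779). miR-6965-5p, whose fresh values stand above, gave 1.08, 1.79 and 1.24 units, at least 4.42-fold lower (adjusted p = 0.000206). miR-6898-5p, within Kansl3, was at least 3.81-fold lower (adjusted p = 0.00241), and miR-6995-5p, within Sh3pxd2a, at least 2.51-fold (adjusted p = 0.00494). The other 3 calls, miR-6904-5p, miR-7031-5p and miR-7015-5p, were among signals not above background. The split turned with the scaling, to 31 higher and 3 lower with the 75th percentile of always detected miRNAs, 15 and 6 with quantile normalization, 5 and 0 with normexp, and 4 and 11 without the filter. Scaling to the percentile over all miRNAs gave 0 and 5, and spike-in scaling 0 and 4. Leaving out a mouse gave 4 to 11 calls, with 11 without mouse 7 and 4 without mouse 9. Incubation with 0 U against untreated depleted RNA called 0 members, against 1.74% of all kept miRNAs, and 5 members had an unadjusted p under 0.05 by limma.

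Detection went with the share of G. Members with at most 30% G numbered 8, and none was kept. Of the 49 members with over 30% and up to 40% G, 32.7% were detected on all 3 stored arrays with DNase, of the 83 with over 40% and up to 50% 47.0%, and of the 36 with over 50% 80.6%. At 0.67 U these shares were 6.12%, 26.5% and 52.8%, and on fresh arrays 4.08%, 12.0% and 38.9%. The miRNAs outside the 5p arms showed the same order after storage, with 23.5%, 58.2% and 85.7%. At 0.67 U they gave 14.4%, 37.0% and 73.8%, above the members, and on fresh arrays 11.2%, 19.9% and 31.0%. Of those kept, with undetected arrays raised, storage calls in these 3 classes were 14 of 18, 35 of 40 and 25 of 28 members. The others gave 46 of 81, 79 of 91 and 34 of 36. RNase calls were 3, 19 and 18 of these members and 22, 44 and 24 of the others. The Spearman correlation between the share of G and the number of arrays with detection was 0.43 over the 176 members and 0.22 over 1432 other miRNAs, and that with the share of U was -0.38 over the members. All points share the same 24 arrays.

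**Figure D5:**
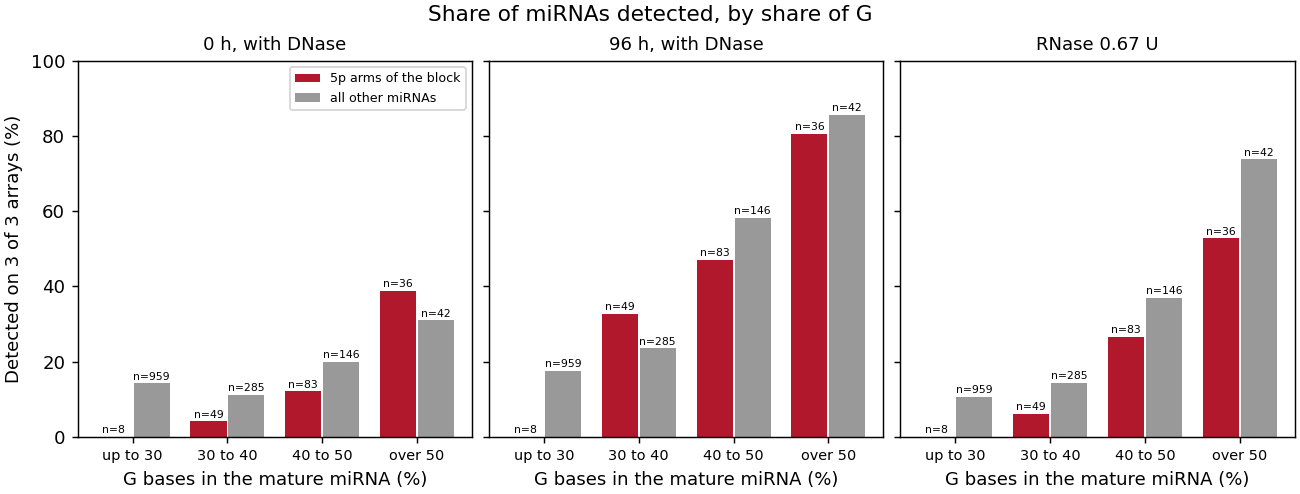
Share of miRNAs detected on 3 of 3 arrays (bars, percent, from 0) by the share of G in the mature sequence, for the 5p arms of the block (red) and all other miRNAs with a sequence (grey), at 0 h and 96 h with DNase and at 0.67 U RNase; n is the number of miRNAs per bar. The red bars rise from 0% at up to 30% G to 38.9%, 80.6% and 52.8% at over 50% G, and the grey bars rise between 30% G and over 50% G in each panel.

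Over the 198 pairs of arms, storage with DNase raised only the 5p arm in 76, only the 3p arm in 3 and both in 6, by calls that hold with undetected arrays raised. RNase raised only the 5p arm in 41, only the 3p arm in 0 and both in 1. Only kept arms could be called, 96 of the 200 5p arms and 46 of the 198 3p arms. An arm that was not kept, and so not tested, counts here as not raised. Of the kept arms, 62 of the 5p and 26 of the 3p were never detected on an intact array, so these numbers are a description. On the fresh arrays with DNase 25 pairs had only the 5p arm detected on all 3 arrays, 12 only the 3p arm and 1 both. On the stored arrays these numbers were 73, 22 and 20 with DNase and 66, 28 and 25 without it. Earlier numbered mirtrons outside the block, both arms of miR-702, miR-877 and miR-1224, gave 4 kept arms of 6, of which 3 were higher with storage and 2 after RNase, too few to set against the 60.4% and 44.7% of all kept miRNAs. miR-1224-5p and miR-877-5p were higher in both, miR-702-3p was higher with storage and changed by -0.37 after RNase, and miR-877-3p changed by -0.06 and -0.39.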

How the data were processed

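The 24 arrays were Agilent mouse miRNA arrays of a single colour, with 30 spots for each of 1881 miRNAs. Per the file headers, the authors extracted the scans with Agilent Feature Extraction 10.10.1.1. Its deposited output gives, per miRNA, an intensity after background subtraction, with no scaling across arrays, and a flag for detection. A deposited table of the whole series gives log2 values made by the authors with variance stabilizing normalization (vsn). The number of arrays limits the precision, and no spot of a member was saturated on any array.

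Where a miRNA was detected its total gene signal was used, and elsewhere the sum of its probe signals. It was normalized by vsn written in Python 3.11.15 (7 rounds, 90% kept in each of 5 slices), which differed from the deposited values by 0.0956 (SD). miRNAs detected on at least 5 arrays were tested with limma 3.58.1 (R 4.3.3) in a single fit of 8 group means with a variance trend, two-sided, with Benjamini-Hochberg adjustment within each of 11 comparisons. The fit was tested on simulated data.

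Members and lists were chosen with earlier results of these data known. Members were named by rule: the 5 largest increases and decreases per main comparison among calls alike in all 3 mice and detected on every array of a group, ranked with undetected arrays raised, those detected on all arrays or all fresh arrays, kept members that share a seed, and the first and last number. Of the storage decreases and the RNase decreases there were none. Same-numbered arrays come from the same mouse by the labels, so the mouse was tried as a replicate block. The correlation of deviations from group means averaged 0.0914 within a mouse and -0.0449 between mice. Alternatives were other scalings, background correction (normexp, on median signals), filters, the block, omission of each mouse and the rank test of the methods. No genome positions are printed, since the array and the sequence table were made on different builds.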

Additional observations from a re-analysis of the deposited data

How the results depend on the processing

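Storage calls kept their direction under the scalings tried, apart from the few lower calls below, while RNase counts fell by over 1.5 times under each other scaling, normexp and the deposited gene signal. Against 88 members higher with storage with DNase there were 18 with normexp, 154 without the filter and 0 with the rank test of the methods, and without DNase 44 with the 75th percentile over every miRNA, 47 with quantile normalization, 12 with normexp, 142 without the filter and 0 with the rank test. That test has a smallest two-sided p of 0.1 for 3 arrays against 3. Members lower with storage numbered 2 with the percentile over every miRNA, 2 with quantile normalization and 3 without the filter with DNase, and 2, 2 and 2 without DNase.

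With the replicate block (the pairing by mouse) 1 member was lower with storage without DNase in place of 0 and 1 was higher with depletion in place of 0 (9 called in place of 7), the call of miR-6969-5p with DNase omission at 96 h was lost, and no total of calls moved by over 1.5 times. For RNase the counts are of members higher at both doses, then of members called in either direction at 0.026 U and at 0.67 U. Against 77, 62 and 77, they were 42, 36 and 46 with the 75th percentile of always detected miRNAs, 40, 34 and 48 with that of all miRNAs, 34, 32 and 42 with quantile normalization, 46, 37 and 48 with spike-in scaling, 10, 10 and 13 with normexp, 39, 27 and 41 with the total gene signal as deposited, 0, 0 and 0 with the rank test, and 43, 36 and 45 with undetected arrays raised, which was chosen after seeing the data. Members lower after RNase at both doses numbered 3 and 1 with the 2 percentiles, 2 with quantile normalization, 1 with normexp and 2 without the filter. Of the calls at 0.026 U and 0.67 U, 3 and 2 were lower with the first percentile and 1 and 0 with the second. With quantile normalization 2 and 3 were lower, and with normexp 1 and 1.

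DNase omission at 96 h, 5 called, gave 13 and 25 with the 2 percentiles, 19 with quantile normalization, 23 with spike-in scaling, 10 without the filter, 0 with normexp, 0 with the rank test, and 0 to 19 without a mouse. At 0 h quantile normalization gave 1 call and the 75th percentile over every miRNA gave 1. Depletion, 7 called, gave 34 with the 75th percentile of always detected miRNAs, 21 with quantile normalization, 4 with spike-in scaling, 15 without the filter, 0 with the rank test and 4 with undetected arrays raised, and 4 to 11 without a mouse. Mock incubation gave 1 with the 75th percentile over every miRNA, 2 with quantile normalization and 1 without the filter. The interaction gave 3 and 5 with the 2 percentiles, 2 with quantile normalization, 1 with spike-in scaling and 0 to 6 without a mouse. Storage minus RNase, 50 called, gave 83 with spike-in scaling, 14 with normexp, 82 without the filter and 24 to 51 without a mouse, and RNase at 0.026 U gave 25 to 75 without a mouse.

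The median storage change of all kept miRNAs was 2.47 here, 0.84 with the 75th percentile of always detected miRNAs, 0.46 with that of all miRNAs, 0.38 with quantile normalization, 3.35 with spike-in scaling, 0.14 with normexp and 7.67 with the total gene signal as deposited, so changes of members are relative to it. A fixed signal level in place of the flags gave 97.67 more members detected at 96 h than at 0 h, against 83.67. Of the changes of named members, 27 over all comparisons, 300 of 356 values kept direction and call, 55 lost the call and 1 turned, miR-7032-5p in storage minus RNase, at 0.0199 with the total gene signal as deposited. The cause of these differences was not tested. Signals of members near the lowest detected signal, 0.67 to 1.62 intensity units by array, have no order, and this limits folds to bounds.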
